A study of Mus musculus with 6 samples.

Results

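CHOP, ATF3 and the other transcription factors and effectors of the integrated stress response were examined in mouse breast cancer cells treated with the KDM3B inhibitor P3FI-90. The group held 10 genes (Ddit3, Ppp1r15a, Atf3, Atf4, Atf5, Cebpb, Trib3, Chac1, Sesn2 and Nupr1) of the 22108 genes with a name in the table of read counts. The genes were picked by symbol with results of this comparison known, so their values are a description and carry no test. The study used P3FI-90 to block the histone demethylase KDM3B in triple-negative breast cancer cells and performed RNA-seq to see which pathways changed. In the DMSO group, 4T1 cells received the vehicle, and in the P3FI-90 group they received the inhibitor at 10 µM, each for 24 h and with 3 libraries. Both groups were the same line, derived from a mouse mammary carcinoma and grown in culture. The labels do not say whether the libraries of a group came from separate cultures, so p-values measure the spread between these libraries, which may be technical.

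The integrated stress response begins when one of a small group of kinases phosphorylates the translation initiation factor eIF2 on its alpha subunit. Most translation then slows, while the mRNA of the transcription factor ATF4 is translated more, and ATF4 switches on amino acid and redox genes together with further factors such as CHOP, ATF3 and ATF5. GADD34, encoded by Ppp1r15a, guides a phosphatase to eIF2 alpha and so closes the loop, and CHOP is best known for promoting cell death when endoplasmic reticulum stress lasts.

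Each library held between 31327094 and 37395732 counts on named genes. A normalized count here is a count scaled by edgeR's TMM method to the mean effective library size. The groups were set against each other by the quasi-likelihood test of edgeR, and p-values were adjusted by the Benjamini-Hochberg method over the 12288 genes that passed its filter on low counts. Of these genes, 79.3% had an adjusted p under 0.05, and "rose" and "fell" are used for such genes. Genes that rose made up 39.9% and genes that fell 39.4% of those tested. In 81.2% of the genes the 3 libraries of one group lay entirely above those of the other. Scaling by total counts alone moved the median log2 fold change of all genes up by 0.21 and gave 6179 higher and 3641 lower genes, against 4908 and 4841 here. All 5 epithelial markers (Krt8, Krt18, Krt14, Epcam and Cdh1) were present, with a sum of 101250 to 106067.7 normalized counts in DMSO and 48988 to 51351 in P3FI-90. Of the other cell types, 5 leukocyte markers summed to 368 to 434 and 279 to 401 normalized counts, nearly all from Cd68. The 3 endothelial markers summed to 0 to 13.3 and 21.6 to 26.4, and the 3 fibroblast markers to 1412 to 1438 and 972 to 1065, mostly from Pdgfra. The share of counts on 13 mitochondrial genes was 3.53% to 3.75% in DMSO and 2.77% to 2.85% in P3FI-90. The part of the markers and of this share in the values of the stress genes was not tested. Kdm3b, the target of the compound, went from 2852 ± 67.4 to 3109 ± 55.7 normalized counts (SD, n = 3), with a log2 fold change of 0.13 (adjusted p = 0.0169). This call was lost under 4 alternatives, and the transcript level does not measure the enzyme's activity.

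After P3FI-90 treatment, 9 of the 10 integrated stress genes had higher counts than in DMSO and 1, Cebpb, had lower counts. The libraries of the groups did not overlap for any of the 10. These counts stand beside the 39.9%, 39.4% and 81.2% of all genes, and nothing is read from them, because the genes were picked on this comparison. The differences covered a wide range, from 18.1-fold for Ddit3 to 1.17-fold for Nupr1, and their median on the log2 scale was 1.00, where all genes tested had a median of 0.013. Ddit3, Ppp1r15a, Atf3 and Atf5 formed the upper end, at 6.04-fold and above, while Trib3, Sesn2, Chac1, Atf4 and Nupr1 lay between 1.17-fold and 2.22-fold. In bulk RNA, a change in the number of cells that express a gene and a change in RNA per cell cannot be told apart.

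**Figure D1:**
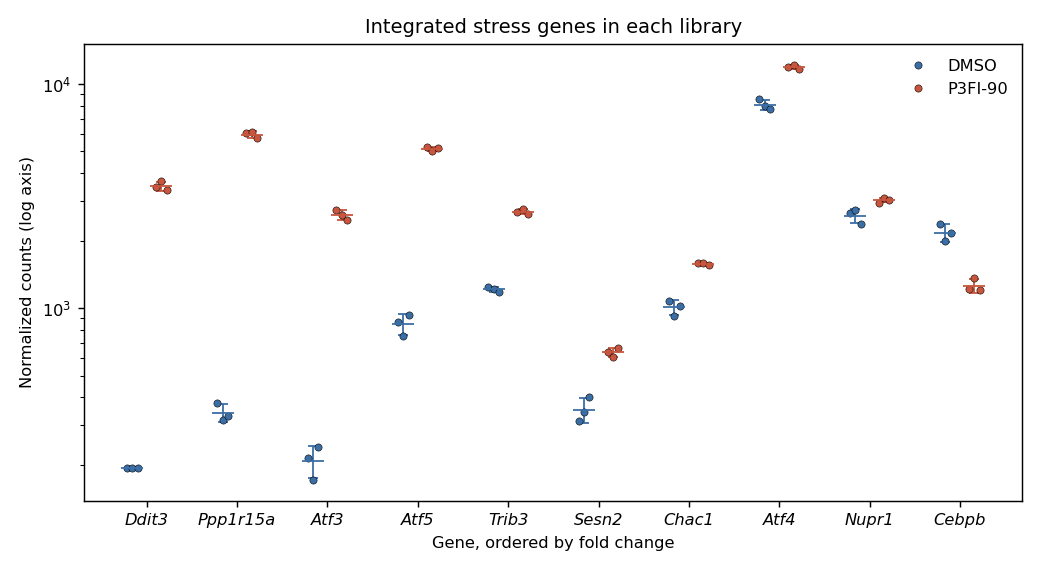
Normalized counts (log axis) of the 10 integrated stress genes in each library, with genes ordered by fold change; points are libraries, horizontal bars the group means and whiskers the SD (n = 3). The P3FI-90 points lie above the DMSO points for 9 genes, from 18.1-fold for Ddit3 to 1.17-fold for Nupr1, and below them for Cebpb.

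Ddit3 (ENSMUSG00000025408) encodes CHOP, a bZIP transcription factor that forms dimers with C/EBP proteins. Its normalized counts were 193, 193 and 194 in the DMSO libraries and 3472, 3674 and 3367 in the P3FI-90 libraries. Every treated library lay far above every vehicle library. The means were 193 ± 0.608 and 3504 ± 156 (SD, n = 3), which is a log2 difference of 4.18 (SE 0.063) and placed Ddit3 at rank 147 of the 12288 genes tested when ordered from the largest rise. The SD in DMSO was smaller than the 13.9 that counting alone would give at that mean, so the close match of the 3 vehicle libraries does not measure their biological spread. The raw counts were 191, 160 and 190 in DMSO and 3711, 4086 and 3437 in P3FI-90.

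Ppp1r15a (ENSMUSG00000040435) encodes GADD34, the stress-inducible subunit of the eIF2 alpha phosphatase. It had 377, 316 and 331 normalized counts in DMSO and 6039, 6078 and 5724 in P3FI-90. The ranges were again far apart, with the first DMSO library the highest of its group. The mean went from 341 ± 32.3 to 5947 ± 194, which is a log2 difference of 4.12 (SE 0.064). Ppp1r15a stood at rank 152, close to Ddit3.

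Atf4 (ENSMUSG00000042406), the central factor of the response, is known to be controlled mainly at translation, which RNA-seq does not measure. Its normalized counts were 8546, 8009 and 7715 in DMSO and 11918, 12186 and 11629 in P3FI-90. All treated libraries were higher, but by 1.47-fold, a log2 fold change of 0.56 (SE 0.040). Atf5 (ENSMUSG00000038539), a related factor that is also controlled at translation, had 869, 749 and 929 normalized counts in DMSO and 5232, 5033 and 5162 in P3FI-90. It differed more than Atf4, by a log2 fold change of 2.60 (SE 0.066), with the second DMSO library lowest and no overlap.

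Atf3 (ENSMUSG00000026628) encodes a stress-induced factor that often represses its targets as a homodimer. It had 216, 171 and 239.8 normalized counts in DMSO and 2747, 2615 and 2485 in P3FI-90. The second DMSO library was the lowest and the third the highest of the vehicle group, and all 3 lay far below the treated libraries. The means were 209 ± 34.9 and 2616 ± 131, which is a log2 difference of 3.64 (SE 0.092), at rank 195.

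Cebpb (ENSMUSG00000056501), which encodes C/EBPβ, a dimer partner of CHOP and ATF4, was the gene of the group with lower counts. Its normalized counts were 2372, 1984 and 2153 in DMSO and 1214, 1366 and 1200.0 in P3FI-90. The highest treated library lay below the lowest vehicle library. The mean went from 2169.7 ± 195 to 1259.8 ± 92.0, which is a log2 difference of −0.78 (SE 0.070), or 0.581 of the DMSO level.

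Trib3 (ENSMUSG00000032715) encodes a pseudokinase that is a known target of CHOP and ATF4 and binds AKT. It had 1242, 1221 and 1183 normalized counts in DMSO and 2691, 2765 and 2626 in P3FI-90. The libraries of each group lay close together and the groups were apart, with a log2 fold change of 1.15 (SE 0.050). Chac1 (ENSMUSG00000027313), which encodes an enzyme that breaks down glutathione, had 1079, 923 and 1019.6 in DMSO and 1583, 1594 and 1561 in P3FI-90. Its groups did not overlap, and the difference was smaller, with a log2 fold change of 0.65 (SE 0.064).

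Sesn2 (ENSMUSG00000028893) encodes a leucine sensor that restrains mTORC1. Its normalized counts were 314, 343 and 401 in DMSO and 635, 604 and 665 in P3FI-90. The DMSO libraries spread widely for their level, with the third highest, and still lay below all treated libraries at a log2 fold change of 0.85 (SE 0.10). Nupr1 (ENSMUSG00000030717), which encodes a small stress-induced chromatin protein, had 2655, 2729 and 2368 in DMSO and 2955, 3086 and 3049 in P3FI-90. Nupr1 was already abundant in the vehicle group and showed the smallest difference of the 10 genes, a log2 fold change of 0.23 (SE 0.055), although the groups did not overlap.

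**Figure D2:**
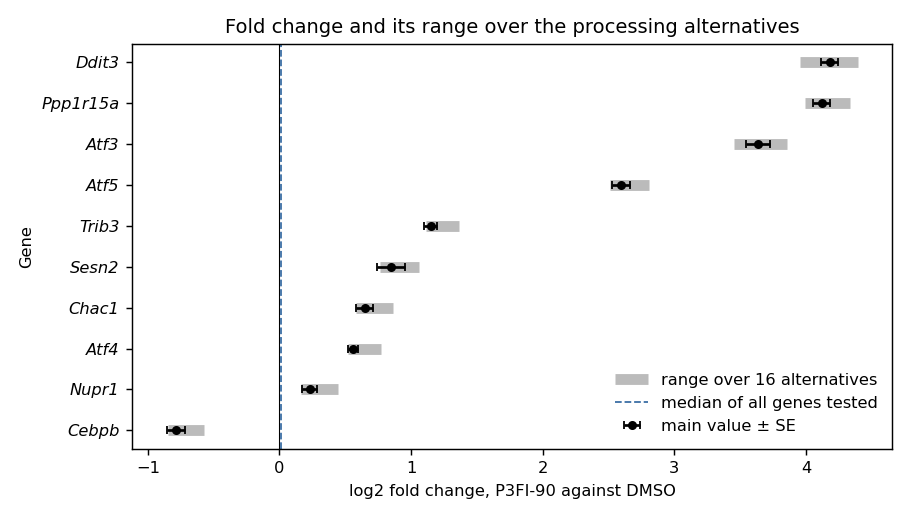
log2 fold change of each integrated stress gene, P3FI-90 against DMSO (horizontal axis), with points and whiskers for the value and its SE, grey bars for the range over 16 processing alternatives and a dashed line at the median of all genes tested. No grey bar crosses 0, and the bar of Nupr1, from 0.17 to 0.44, lies nearest to it.

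The genes were not equally steady within a group. The within-group SD on the log2 scale was smallest for Trib3 (0.036) and Ddit3 (0.045) and largest for Atf3 (0.18). The second DMSO library lay below its group mean for 8 of the 10 genes, the first for 2 and the third for 5, while 51.3% of all genes were below the mean in that second library. Leaving out the second DMSO library kept all 10 directions, and it moved the log2 fold change of Atf5 to 2.51 and that of Chac1 to 0.58.

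Levels were compared between genes as normalized counts per kb of exon, with exon lengths from GENCODE M21. Each length covers the merged exons of all annotated transcripts of a gene, not of the transcript expressed. The order between genes therefore depends on the annotation. In DMSO, Atf4 was highest at 3431 ± 179 per kb, followed by Cebpb at 1443 ± 129 and Nupr1 at 1028 ± 75.9. Chac1 (615 ± 48.2) and Trib3 (572 ± 14.0) overlapped in their libraries, and Atf5 followed at 426 ± 45.9. Ppp1r15a (116 ± 11.0), Ddit3 (113 ± 0.355), Sesn2 (101 ± 12.8) and Atf3 (96.9 ± 16.2) lay at the bottom, where each overlapped the next in the order. In P3FI-90, Atf4 remained highest at 5051 ± 118 per kb. Atf5 was next at 2580 ± 50.4, and Ddit3 (2046 ± 91.1) and Ppp1r15a (2025 ± 66.2) followed with overlapping libraries. Trib3 (1268 ± 32.6), Atf3 (1214 ± 60.8) and Nupr1 (1205 ± 26.8) formed the middle, with Trib3 overlapping Atf3 and Atf3 overlapping Nupr1. Chac1 (965 ± 10.5), Cebpb (838 ± 61.2) and Sesn2 (183 ± 8.77) were lowest, with no overlap between neighbours. Cebpb thus moved from place 2 to place 9 of the order, and Ddit3 from place 8 to place 3.

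**Figure D3:**
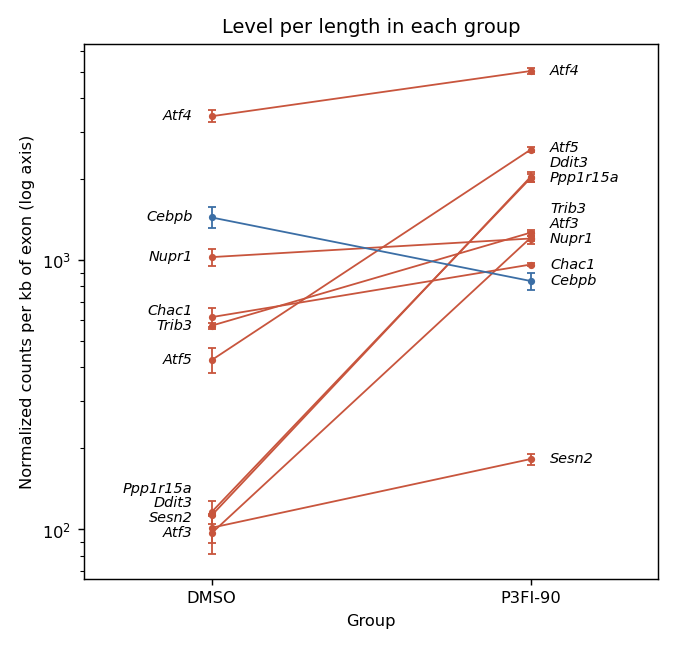
Mean level of each gene in normalized counts per kb of exon (log axis) in DMSO and P3FI-90, with SD whiskers (n = 3); red lines mark higher and blue lines lower levels in P3FI-90, and names are spread apart where they would collide. Ddit3, Ppp1r15a and Atf3 start near 100 per kb beside Sesn2 and end between 1214 and 2046, while Sesn2 ends at 183.

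The promoter sequences of the genes with the largest differences are shown because all 10 genes are known stress-response genes and the letters of their upstream regions can be compared. The sequences are from the RefSeq table on GRCm38.p6, while the submitters' notes list GRCm39 for the counts, so the coordinates apply to the first build alone. Each window ran from 250 bases before to 50 bases after the start of a gene, and 11 windows covered the 10 genes, with a pair for Atf5. Positions count from +1 at the start. Both strands were searched for the CARE, the element bound by ATF4 with C/EBP partners (TGATGNAA), the CRE (TGACGTCA), the AP-1 element (TGANTCA), a C/EBP palindrome (TTGCGCAA), the antioxidant response element (TGACNNNGC) and the CCAAT box (CCAAT). Capitals mark matches to any of these except the CCAAT box.
Ddit3, chr10:127290543-127290792, plus strand: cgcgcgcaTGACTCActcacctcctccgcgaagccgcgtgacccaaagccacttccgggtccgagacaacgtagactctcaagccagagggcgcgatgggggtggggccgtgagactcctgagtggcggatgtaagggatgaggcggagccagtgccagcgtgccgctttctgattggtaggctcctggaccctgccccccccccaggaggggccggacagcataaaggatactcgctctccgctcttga
Ppp1r15a, chr7:45526269-45526518, minus strand: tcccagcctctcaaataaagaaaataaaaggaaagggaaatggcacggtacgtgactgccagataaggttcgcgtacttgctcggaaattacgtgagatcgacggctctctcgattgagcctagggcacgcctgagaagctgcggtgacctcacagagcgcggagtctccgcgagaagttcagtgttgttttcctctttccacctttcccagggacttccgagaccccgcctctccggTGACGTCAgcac
Atf3, chr1:191183334-191183583, minus strand: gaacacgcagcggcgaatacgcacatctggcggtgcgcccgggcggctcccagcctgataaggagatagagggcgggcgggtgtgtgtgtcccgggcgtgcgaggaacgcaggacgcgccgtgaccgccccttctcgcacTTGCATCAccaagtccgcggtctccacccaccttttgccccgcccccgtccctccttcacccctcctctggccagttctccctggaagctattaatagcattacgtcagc
The capitals mark an AP-1 match at position −242 in Ddit3, a CRE at −12 in Ppp1r15a and a CARE on the opposite strand at −110 in Atf3.

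The CARE was found in 4 of the 10 genes (Atf3, Trib3, Chac1 and Nupr1), and in 4.51% of the 27025 genes with a window. The stretches around the matches of the other 3 are shown so that they can be set beside Atf3. All read TTGCATCA or TTACATCA here, because the match is on the opposite strand.
Chac1, chr2:119351013-119351092, plus strand: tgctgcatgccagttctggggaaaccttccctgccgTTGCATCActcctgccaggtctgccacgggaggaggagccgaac
Nupr1, chr7:126625537-126625616, minus strand: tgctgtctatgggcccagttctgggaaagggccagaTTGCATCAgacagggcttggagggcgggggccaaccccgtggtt
Trib3, chr2:152344028-152344057, minus strand: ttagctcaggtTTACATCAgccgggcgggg
The matches began at −193 in Chac1, −110 in Nupr1 and +15 in Trib3. The 4 genes with the letters had log2 fold changes of 3.64, 1.15, 0.65 and 0.23 in the order Atf3, Trib3, Chac1 and Nupr1, so genes with a match lay near both ends of the range of the higher genes. The CRE was found in Ppp1r15a (2.03% of all genes), the AP-1 letters in Ddit3 (8.97%), the antioxidant letters in Ppp1r15a, Cebpb and Sesn2 (14.0%), the CCAAT box in 6 genes (41.1%) and the C/EBP palindrome in none (0.207%). Among the other ATF4 targets described later, 11 of 32 with a window held a CARE, and among the paralogs of the 10 genes 1 of 8, Jdp2. A match is a run of letters and not a measured binding site, and the absence of a match concerns this window alone.

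Some reads of these genes could also belong to neighbours, since it is not given whether reads were counted by strand. Cebpb shared 20.7% of its exon length with Peds1 on the opposite strand, and 18.1% of its 50-base windows also occurred in transcripts of other genes. Peds1 rose by a log2 fold change of 0.39 (SE 0.051), opposite in direction to Cebpb. Ddit3 shared 6.13% of its exon bases with a further entry of its name on the same strand, 3.97% with Mars1 on the opposite strand, and Atf5 shared 4.11% with Nup62. Nup62 had a log2 fold change of −0.51 and Mars1 of −0.13, which became 0.087 under scaling by total counts. Ppp1r15a shared 12 bases with Tulp2. Atf3, Atf4, Trib3, Chac1, Sesn2 and Nupr1 overlapped no annotated exon of another gene.

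Upstream of the 10 genes, the list of 23 genes of the eIF2 pathway held 22 tested genes, of which 8 rose and 12 fell (2 neither), and the median of the tested genes on the log2 scale was −0.14. With 20 of 22 genes called, this list stood beside 79.3% of all genes. Of the kinases that phosphorylate eIF2 alpha, Eif2ak3, which encodes PERK, the sensor of the endoplasmic reticulum, went from 645, 699.7 and 660.3 normalized counts in DMSO to 1706, 1751 and 1781 in P3FI-90. It rose by 1.39 on the log2 scale, with an SE of 0.060 and an adjusted p of 4.77e-11, and the groups did not overlap. Eif2ak2 (PKR, the kinase that senses double-stranded RNA) rose by 0.24 and Eif2ak4 (GCN2, which senses uncharged tRNA) had a log2 fold change of −0.55, with adjusted p-values of 3.02e-04 and 2.46e-07. Eif2ak1 (HRI, the heme-regulated kinase) was at 0.08 on the log2 scale (adjusted p = 0.229). It passed the threshold without the third DMSO library, at a log2 fold change of 0.16 (adjusted p = 0.0144), and under scaling by total counts (adjusted p = 0.000455). Transcript levels of a kinase do not measure its activity.

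Impact, an inhibitor of GCN2 activation, rose by a log2 fold change of 1.62 (SE 0.048), and Dele1, which carries mitochondrial stress to HRI, by 0.67 (SE 0.056). Oma1, the mitochondrial protease that cleaves DELE1, fell at a log2 fold change of −0.84 (SE 0.12). The guanine nucleotide exchange factor eIF2B, which phosphorylated eIF2 inhibits, has 5 subunits, of which Eif2b3 (−0.67), Eif2b4 (−0.82) and Eif2b5 (−0.94) fell, Eif2b1 (0.64) rose and Eif2b2 did not pass the test (0.05, adjusted p = 0.396, but 0.000252 under total counts). The subunits Eif2b2, Eif2b3 and Eif2b4 and the phosphatase genes Ppp1cb and Ppp1cc were named after their values were seen. On the side of GADD34, the 3 listed catalytic phosphatase subunits fell. Ppp1cb was at −0.58 and Ppp1cc at −0.16, which became 0.052 under total counts (adjusted p = 0.133), and Ppp1ca fell furthest, with normalized counts going from 21582 ± 479 to 10598 ± 349 (−1.03 on the log2 scale, SE 0.034). The alternative initiation factor Eif2a fell as well (−0.83).

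The closest relatives of the 10 genes moved in both directions. Of 12 listed paralogs, 10 were tested, 4 rose and 6 fell, and the middle of their log2 values lay at −0.72. All 10 tested paralogs were called, where 79.3% of all genes were. Among all genes 39.9% were higher and 39.4% lower, and the median was 0.013. With so few paralogs, the split of 4 and 6 was not read as a difference from all genes. Trib1 had 1858, 1742 and 2061 normalized counts in DMSO and 807, 703 and 725 in P3FI-90, and Trib2 had 1379, 1339 and 1502 and 243, 194 and 226. Both pseudokinases fell without overlap, with log2 fold changes of −1.34 (SE 0.075) and −2.67 (SE 0.092), while Trib3 was at 1.15. In the sestrin family, Sesn3 was at a log2 fold change of 0.87 (SE 0.059), near the 0.85 of Sesn2, and Sesn1, a known p53 target, fell (−0.46, SE 0.10). Chac2, which encodes a slower glutathione-degrading enzyme, fell from 647 ± 44.7 to 328 ± 25.8 normalized counts (−0.98, SE 0.099). Ppp1r15b, which encodes the constitutive partner of the eIF2 alpha phosphatase, rose by 0.36 (SE 0.036), against 4.12 for Ppp1r15a.

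Among the C/EBP family, Cebpd fell with a log2 fold change of −1.13 (SE 0.15). Cebpa also fell, at −2.60 (SE 0.66), from only 19.7 ± 7.83 to 3.12 ± 2.16 normalized counts. The value of Cebpa rests on few counts, with −3.30 without the first P3FI-90 library and −0.51 on the log2(CPM + 1) scale. Cebpg, the partner that ATF4 uses at amino acid genes, rose from 2357 ± 180.4 to 4687 ± 200.3 normalized counts (0.99, SE 0.056). Cebpe had no counts, and Nupr2 was too low to be tested. Jdp2, the factor most like ATF3, rose from 1330.0 ± 31.0 to 2946 ± 122 normalized counts (1.15, SE 0.052). Differences between an integrated stress gene and its paralog were not tested, since the first was picked on this comparison.

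**Figure D4:**
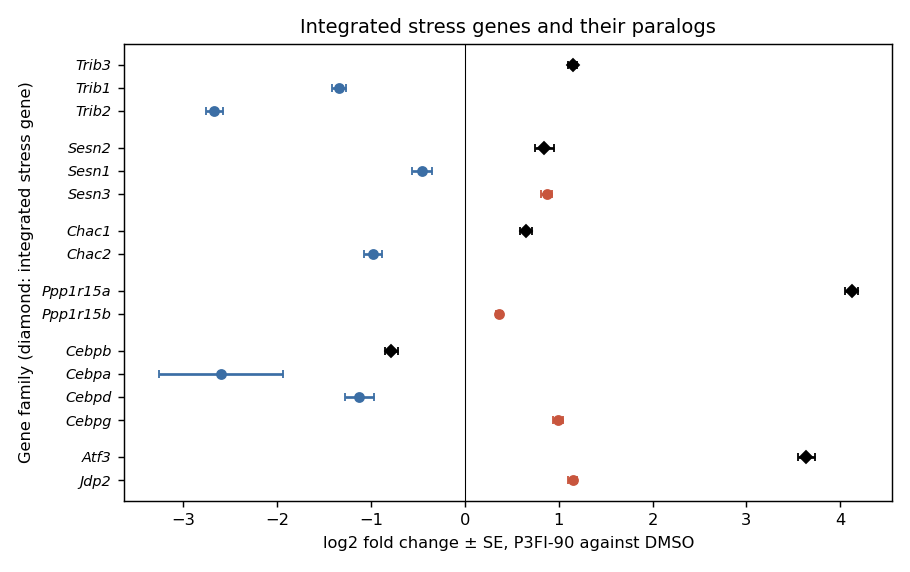
log2 fold change ± SE, P3FI-90 against DMSO (horizontal axis), of integrated stress genes (black diamonds) and their tested paralogs (circles, red for higher and blue for lower), grouped by family. Trib1, Trib2, Chac2, Sesn1, Cebpa and Cebpd lie below 0, and Sesn3, Ppp1r15b, Cebpg and Jdp2 above 0.

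CHOP, ATF3, ATF4, ATF5 and C/EBPβ belong to the bZIP family, whose members bind DNA as dimers. Of 42 other bZIP genes, 37 were tested, and 22 rose, 8 fell and 7 did neither, with a median log2 fold change of 0.44. With 30 of 37 genes called, this list stood beside 79.3% of all genes. Over all genes, 39.9% rose and 39.4% fell, and the median was 0.013. The largest rises under the naming rule were in Creb5 (2.68, SE 0.076), Bach2 (2.35, SE 0.18), Maff (1.99, SE 0.049) and Mafk (1.66, SE 0.061). Maff and Mafk, which encode small MAF proteins that pair with NRF2 and BACH factors, went from 979 ± 24.8 to 3876 ± 48.7 and from 1126 ± 99.7 to 3556 ± 53.3 normalized counts. Bach2 was low in DMSO, at 43.6 ± 0.271 normalized counts, and was at 1.71 on the log2(CPM + 1) scale. Jund, an AP-1 subunit, had a log2 fold change of −1.09 and Nfe2l2, which encodes the antioxidant factor NRF2, of −0.69. Of the dimer partners of CHOP and ATF4 named above, Cebpb was lower and Cebpg higher after P3FI-90.

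Genes that ATF4 is known to activate, the 10 genes left out, were listed next. Of 41 listed, 39 were tested, 21 rose, 11 fell and 7 did neither, beside 39.9% higher and 39.4% lower over all genes. With 32 of 39 genes called, this list stood beside 79.3% of all genes. The median log2 fold change was 0.19, where that of all genes was 0.013. The largest rises were in Slc7a3, a cationic amino acid transporter (2.93, SE 0.27), Aldh1l2, a mitochondrial folate enzyme (2.44, SE 0.23), Vldlr, a lipoprotein receptor (2.36, SE 0.28), and Vegfa, an angiogenic growth factor (1.69, SE 0.052). The first 3 of these were low in DMSO, at 16.7 ± 3.12, 35.4 ± 6.33 and 39.4 ± 18.1 normalized counts, while Vegfa went from 1314 ± 69.0 to 4252 ± 115. On the log2(CPM + 1) scale, which compresses low genes, these 3 were at 1.66, 1.68 and 1.69. The largest falls were in Cth, an enzyme of cysteine synthesis (−1.84, SE 0.076), the glutamine transporter Slc1a5 (−1.39, SE 0.055), the mTORC1 inhibitor Ddit4 (−1.37, SE 0.056) and Psat1, an enzyme of serine synthesis (−1.16, SE 0.032). Psat1 went from 23893 ± 561 to 10712 ± 206 normalized counts. The other enzymes of serine synthesis, Phgdh (−0.78) and Psph (−0.30), which were picked after their values were seen, fell as well, and the call of Psph was lost under total counts (adjusted p = 0.129). Asns, the asparagine synthetase often used as a marker of ATF4, was likewise picked afterwards and had a log2 fold change of 0.19 (SE 0.033), from 9557 ± 144 to 10908 ± 247 normalized counts. Under scaling by total counts, 30 of the listed genes were higher and 7 lower, where 6179 of all 12288 genes were higher and 3641 lower.

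Downstream of CHOP, 13 genes of cell death and redox control were listed and 12 tested. Of these, 4 rose, 5 fell and 3 did neither, beside 39.9% higher and 39.4% lower over all genes. Their median log2 fold change was 0.0066. Ero1b, an oxidase of the endoplasmic reticulum, rose by 0.60 (SE 0.090), and Bcl2l11, which encodes the BH3-only protein BIM, by 0.54 (SE 0.043). Tnfrsf10b, the death receptor that CHOP is known to induce, went from 1930.2 ± 10.4 to 2168 ± 115 normalized counts (0.17, adjusted p = 0.00895), and without the third P3FI-90 library its adjusted p was 0.0677. The calcium channel gene Itpr1 rose by 0.17. The survival genes Mcl1 (−0.83) and Bcl2l1 (−0.64) and the pore-forming Bak1 (−0.87) fell. Casp12 was at −0.52 (adjusted p = 0.0181), a call lost without the third DMSO library (0.0614), without the third P3FI-90 library (0.0636) and under scaling by total counts (0.140). Pmaip1, which encodes NOXA, was at 0 in all DMSO libraries and at 8.78 ± 1.39 normalized counts in P3FI-90, too low to be tested.

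The ATF6 and XBP1 branches of the unfolded protein response, which can run beside PERK and ATF4, were listed with 25 genes. Of these, 24 were tested, 11 rose and 11 fell, with a median log2 fold change of 0.0099, beside 39.9% higher, 39.4% lower and a median of 0.013 over all genes. The sensors Atf6 (1.22, SE 0.044) and Ern1, which encodes IRE1 (1.06, SE 0.049), rose, as did the co-chaperone Dnajb9 (1.45, SE 0.080) and Derl1, a factor of protein retrotranslocation (0.67, SE 0.035). The protein disulfide isomerases Pdia4 (−1.42) and Pdia6 (−0.89), the chaperone Hsp90b1 (−1.21) and the translocon subunit Sec61b (−1.33) fell. Hspa5, which encodes the chaperone BiP and was picked after its value was seen, went from 59599 ± 1831 to 49334 ± 861 normalized counts (−0.27, SE 0.028), a fall whose call was lost under total counts (adjusted p = 0.0665). Xbp1 fell (−0.72, SE 0.053).

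The known partners of the effectors were listed separately, with 19 genes, all tested, of which 8 rose and 9 fell (median 0.079). These counts stand beside 39.9% higher and 39.4% lower over all genes. For Trib3, Akt1 fell from 23153 ± 1232 to 12048 ± 256 normalized counts (−0.94, SE 0.039), and the ubiquitin ligase Cop1, which Tribbles proteins recruit, rose by 0.53 (SE 0.069). For Sesn2, which acts through the GATOR complexes, Depdc5 fell (−0.88, SE 0.073). Nprl2, of the same complex as Depdc5 (0.34, SE 0.078), and Bmt2 (0.44, SE 0.073) rose. For Chac1, the glutathione synthesis genes Gclc (−0.89, SE 0.059) and Gss (−1.03, SE 0.096) fell, and Ggct, which acts on the products of glutathione breakdown, rose by 0.71 (SE 0.13).

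**Figure D5:**
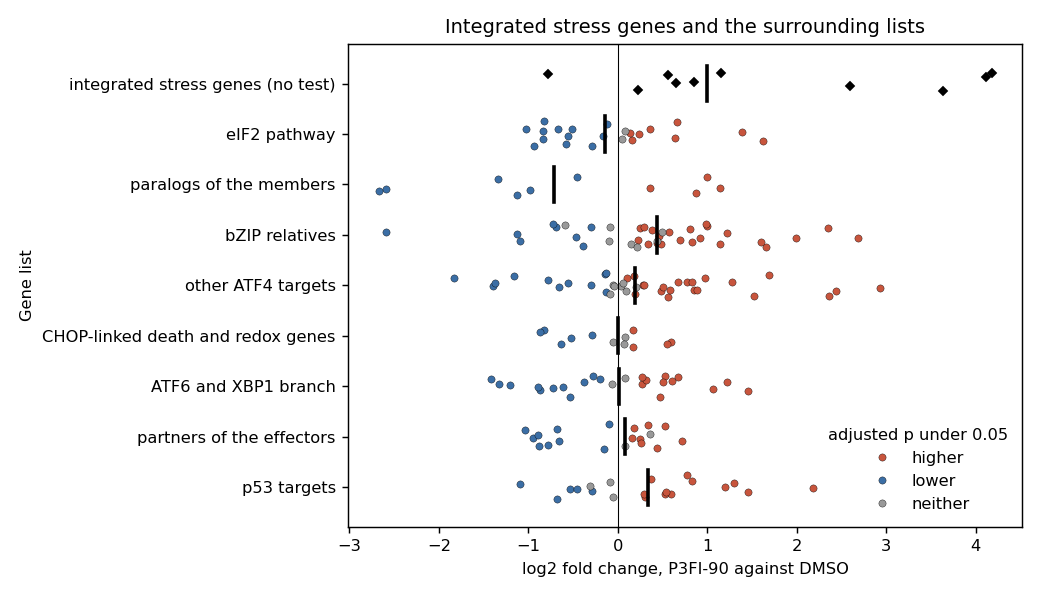
log2 fold change, P3FI-90 against DMSO (horizontal axis), of the 10 integrated stress genes (black diamonds, not tested) and of every tested gene of 8 lists (red higher, blue lower and grey neither at an adjusted p under 0.05), with the list's median as a black bar. The median was 1.00 for the integrated stress genes and between −0.72 and 0.44 for the lists, and Ddit3, Ppp1r15a and Atf3 lie beyond every listed gene. The integrated stress genes were picked on this comparison, so nothing is read from their distance to the lists.

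The genes whose profile over the 6 libraries was nearest to Ddit3 were Siglecg, Col20a1, Plcxd2, Cxcl10 and Fam171b, at Euclidean distances of 0.272 to 0.459 on the log2 CPM scale among 10766 candidates. Plcxd2 was the most abundant of them, with mean normalized counts of 376 in DMSO and 7844 in P3FI-90, and Cxcl10, an interferon-induced chemokine, went from 29.6 to 593. Nearest to Atf3 were Cpeb2, Krt16, Zfand2a, P2rx7 and Tnfsf15, at distances of 0.399 to 0.656. Zfand2a, an arsenite- and heat-inducible gene of protein quality control, went from 686 to 7529, and Krt16, a keratin of stressed epithelium, from 70.4 to 1034. The distance mostly follows the size of the group difference, since the libraries of a group differ little.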

How the data were processed

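The authors deposited a table of raw read counts per gene for 3 DMSO and 3 P3FI-90 libraries of 4T1 cells. TRIzol RNA was made into Illumina mRNA-seq libraries. The submitters' notes list CASAVA, HISAT2, StringTie and GRCm39, and the counter and strandedness are not given in the sources used here. Of 22401 rows, 293 without a gene name (0.483% to 0.556% of counts) were left out. Genes were filtered with filterByExpr, scaled by TMM and tested with edgeR 4.0.16 (glmQLFit, glmQLFTest; R 4.3.3) and Benjamini-Hochberg adjustment, although the study names limma. No block was used. The SE of a log2 fold change was its absolute value divided by the square root of the quasi-likelihood F statistic. No library was a copy of another, since the chi-square per gene between those of one group was 5.58 to 8.60, beyond counting noise.

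The members and lists were chosen with earlier results of these data known. Named were all members, the eIF2 alpha kinases, the paralogs, Kdm3b, of each other list up to 4 higher and 4 lower genes with the largest change (past an adjusted p of 0.05, with a group mean of 100 normalized counts or more and no overlap), and the 5 profiles nearest to Ddit3 and to Atf3. A gene on several lists counted in each. Exon lengths and overlaps came from GENCODE M21 and promoters from RefSeq (GRCm38.p6). Alternatives were size factors of DESeq2, total counts and upper quartiles, a filter of 10 counts in each library or none, the tests of DESeq2 1.42.0, of voom and of limma 3.58.1 on log2(CPM + 1), a replicate block, each library left out, and, added after the data were seen, the unnamed rows kept. The tests were checked on simulated counts.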

Additional observations from a re-analysis of the deposited data

How the results depend on the processing

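All 10 integrated stress genes kept their direction under all 16 alternatives, with 9 higher and 1 lower throughout. Their median log2 fold change of 1.00 was 1.21 under scaling by total counts and 0.96 to 1.04 when each library was left out in turn. Under total counts 7 rather than 11 of the other ATF4 targets and 3 rather than 5 of the CHOP-linked genes were lower, which follows from the shift of the median of all genes by 0.21. Of the named genes in these alternatives, Mars1, the neighbour of Ddit3, changed sign to 0.087 and Ppp1cc to 0.052, both under total counts. The call of Kdm3b was lost under upper quartile scaling (adjusted p = 0.0801) and without the first DMSO library (0.0627), the second P3FI-90 library (0.0588) or the third (0.0518). The replicate block, which treats equal replicate numbers as pairs, gave 4802 higher and 4722 lower genes and changed no call of a named gene. Equally numbered libraries did not deviate together, with correlations of −0.021, 0.015 and 0.0049, so they share only a number. More genes had a count of 2 than of 1 in every library (311 against 81 in the first DMSO library), and it is not given whether both mates of a pair were counted. With 3 libraries a group, the difference of Nupr1 was small and, at 0.17 to 0.44 over the alternatives, uncertain relative to its own size.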

Other observations

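Several integrated stress genes, Sesn2 and Atf3 among them, are also known to respond to p53, so a list of 21 p53 targets was examined. Of these, 20 were tested, 12 rose, 5 fell and 3 did neither, beside 39.9% higher and 39.4% lower over all genes. The median on the log2 scale was 0.34, where that of all genes was 0.013. Gadd45a, a growth arrest gene that also responds to ATF4, had 620.3, 813 and 708 normalized counts in DMSO and 3481, 3126 and 3101 in P3FI-90, without overlap. It rose by 2.18 on the log2 scale (SE 0.083), with an adjusted p of 1.19e-11 from edgeR. Mdm2, the negative regulator of p53, rose from 1472 ± 113 to 4031 ± 239 normalized counts (1.45, SE 0.062), and Ercc5, a DNA repair nuclease (1.30, SE 0.066), and Trp53inp1 (1.20, SE 0.17) rose as well. Phlda3 (−1.09), Perp (−0.67), Ei24 (−0.53) and Sesn1 (−0.46) fell. No measurement of p53 itself was analysed here. The sources used here do not give the p53 status of the line, and a p53 response was not tested.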
